A study of Drosophila melanogaster with 52 samples.

Results

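Embryos laid by Drosophila melanogaster mothers mutant for HIRA were compared with wild-type embryos at 2.5 to 3 h after egg laying, the age at which the zygotic genome is widely active. The comparison used 4 of the 52 libraries of the series: 2 labelled as the M-Z+ HIRA mutant and 2 from the wild type collected for the HIRA mutant. In that notation M- stands for no maternal HIRA and Z+ for a wild-type zygotic copy. According to the methods, the wild type was the w1118 strain, mutant stocks carried CRISPR alleles (HIRA1 and HIRA2 are listed, and the labels do not say which entered these libraries), each library came from a pool of 50 hand-selected embryos, and animals were kept at 25 °C. The members are genes: 10638 of the 16680 genes in the files passed a filter on low counts and were tested. Wild-type and mutant embryos of 0.5 to 1 h and 1 to 1.5 h, 2 libraries each, entered the same fit, which therefore held 12 libraries.

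HIRA is the chaperone that places the histone variant H3.3 into chromatin outside of replication. In Drosophila, maternal HIRA is known for assembling H3.3 nucleosomes on the paternal genome after fertilisation, and eggs without it develop as haploids that carry the maternal genome only. Such haploids would lack a paternal Hira copy, and the ploidy and Hira copies of the embryos used here were not tested. Early fly embryos run on RNA loaded by the mother. This RNA is then cleared while the zygotic genome is switched on, first at a few short genes and then broadly at cellularisation, when gap, pair-rule, segment polarity and Hox genes lay out the body plan.

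The 4 libraries held 16032661 and 18191782 expected counts (labelled mutant) and 23422713 and 18331049 (wild type). Levels are given as CPM, that is counts per unit of sequencing depth with TMM factors, and fold changes as log2 of mutant over wild type. A gene was called when its adjusted p was under 0.05 and its absolute log2 fold change above 1. Adjusted p-values are Benjamini-Hochberg values over all genes tested, from the quasi-likelihood test of edgeR, with 2 libraries a group throughout. The sources describe the replicates as biological, and the p-values measure the spread between such pools.

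Hira RNA itself did not follow the labels at this age. Its level was 20.4 and 18.3 CPM in the libraries labelled mutant and 10.8 and 10.01 CPM in the wild type, so the mutant pair lay above the wild-type pair (log2 fold change 0.89, SE 0.08, adjusted p = 2.3e-06, under the fold threshold). At 0.5 to 1 h the order was the reverse, with 73.6 and 73.0 CPM against 176 and 165 CPM, and at 1 to 1.5 h Hira stood at 74.8 and 67.6 CPM against 122 and 123 CPM. Set against the wild type collected for the H3.3 mutant at 2.5 to 3 h, its log2 fold change was -0.07 (SE 0.10, adjusted p = 0.57). RNA level is no measure of a null allele, so the directions below are those of the libraries labelled mutant.

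The wild-type libraries also held more RNA of genes that work in differentiated tissue, and the mutant-labelled libraries nearly lacked that of muscle, trachea and cuticle. Mhc, the muscle myosin heavy chain (chr2L:16766566-16788766, dm6), was at 409 and 408 CPM in the wild type and at 1.36 and 0.94 CPM in the libraries labelled mutant. Act57B, a muscle actin, was at 553 and 572 CPM in the wild type and at 0.41 and 0.47 CPM in the libraries labelled mutant. Summed over 10 late embryo and larval muscle genes the level was 1860 and 1902 CPM in the wild type and 33.003 and 30.3 CPM in the libraries labelled mutant, with 3 genes at or under 3 counts in both of these. All 10 were called lower, as were all 9 late tracheal and cuticle genes, all 7 differentiated neuron genes and 6 of 7 hemocyte and fat body genes. The neuron sum was 136 and 114 CPM in the libraries labelled mutant and 293 and 315 CPM in the wild type, and the hemocyte and fat body sum over 12 genes 161 and 164 CPM against 658 and 646 CPM.

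**Figure D1:**
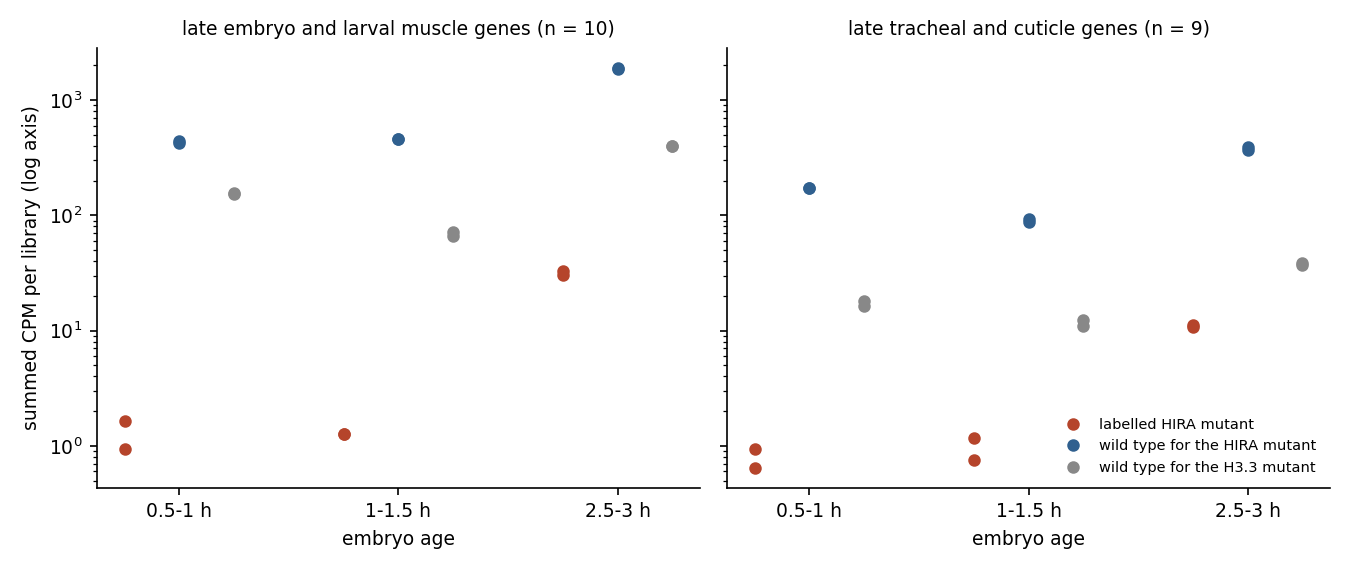
Summed CPM per library (log axis) of 10 muscle genes and 9 tracheal and cuticle genes at 3 embryo ages, 2 points a group: libraries labelled HIRA mutant, wild type for the HIRA mutant and wild type for the H3.3 mutant. The wild type for the HIRA mutant stands above the other groups at every age, with muscle sums of 1860 and 1902 CPM at 2.5 to 3 h.

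The muscle, tracheal and cuticle markers stood apart at the earlier ages too. At 0.5 to 1 h the muscle sum was 427 and 444 CPM in the wild type and 0.93 and 1.63 CPM in the libraries labelled mutant. The neuron sums overlapped at that age, at 6.03 and 11.5 CPM against 5.59 and 6.41 CPM, although 5 of 7 neuron genes were called lower. The hemocyte and fat body sums were 368 and 390 CPM in the wild type against 265 and 277 CPM. Over the 3 ages, 84 genes had at most 3 counts in all 6 mutant-labelled libraries and at least 20 counts in all 6 wild-type libraries, and 0 genes showed the opposite. Follicle cell and eggshell genes, markers of maternal tissue, summed over 18 genes to 11.8 and 11.9 CPM in the libraries labelled mutant and 12.95 and 13.2 CPM in the wild type at 2.5 to 3 h. At 0.5 to 1 h all 18 were called lower, and the sum over the 22 genes of the list was 3.37 and 2.28 CPM in the libraries labelled mutant and 107 and 100.2 CPM in the wild type. A single gene of the testis and sperm list, bam, passed the filter. The marker lists were meant to check for RNA of the mother or of older embryos. According to the methods, older embryos were removed under a light microscope. The part of the late markers in the differences below was not tested. In pools of whole embryos, older embryos among the wild type, fewer cells of a type and less RNA per cell cannot be told apart. A second control held less of the muscle, tracheal and cuticle RNA: the wild type for the H3.3 mutant, from another experiment of the series, whose muscle sum was 398 and 402 CPM and whose tracheal and cuticle sum was 38.6 and 37.0 CPM, where the matched wild type had 368 and 391 CPM. Its neuron sum, 309 and 365 CPM, was not below that of the matched wild type, and its hemocyte and fat body sum over 8 genes was 534 and 586 CPM. Against it, all 10 muscle genes, 6 of 9 tracheal and cuticle genes, 1 of 7 neuron genes and 5 of 7 hemocyte and fat body genes were called lower in the libraries labelled mutant. Its libraries are no direct match: all 24 tested copies of the replication-dependent histone genes were called higher in the libraries labelled mutant against it, while against the matched wild type 5 were called higher and 10 lower.

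Across all genes, 1052 were called higher in the libraries labelled mutant (9.89% of those tested) and 2948 lower (27.7%), with a median log2 fold change of -0.28. A fit of the 4 libraries alone gave 1356 higher and 2288 lower with a median of -0.06, so the split of the calls moves with the scaling. Against the second control the counts were 1293 higher and 1986 lower of 10717 genes. Both mutant-labelled libraries lay below both wild-type libraries for 5893 genes (55.4%) and above them for 3449 (32.4%). The shares of all genes called, 9.89% higher and 27.7% lower, are the background for every list count against the matched wild type at this age. For list counts against the second control, the background is its 1293 higher and 1986 lower of 10717 genes.

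To ask which classes of genes changed, genes were sorted by their course in the wild type for the H3.3 mutant, which shares no library with the comparison. Rising genes were near silent at 0.5 to 1 h and at 5 CPM or more at 2.5 to 3 h. The others were maternal, at 10 CPM or more at 0.5 to 1 h: falling genes lost more than 1 log2 unit by 2.5 to 3 h, stable genes stayed within 0.5, and boosted genes gained more than 1. The remaining 5658 genes, many of them at low levels (median 4.16 CPM in the wild type), met none of these definitions and held 2182 of the 2948 genes called lower. Because the H3.3 wild type holds muscle RNA too, Mhc sits in the stable class and Act57B in the boosted class.

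**Figure D2:**
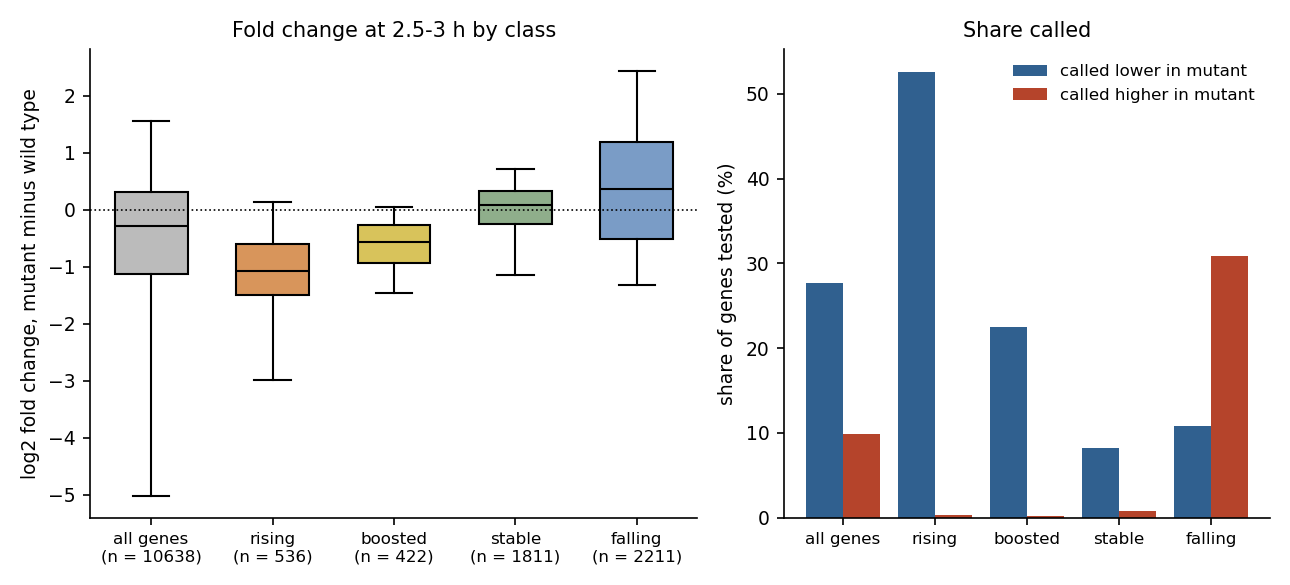
Left, log2 fold change at 2.5 to 3 h (mutant minus wild type) of all genes tested and of 4 classes; boxes show the median and quartiles and whiskers the 5th to 95th percentile of genes. Right, the share of each class called lower or higher: 52.6% of rising genes were called lower and 30.9% of falling genes higher, against 27.7% and 9.89% of all genes.

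Zygotic genes were lower in the libraries labelled mutant. Of 536 rising genes, 282 (52.6%) were called lower, 2 were higher, and the median log2 fold change was -1.06 with quartiles of -1.49 and -0.60. Summed over the class, rising RNA came to 6294 and 6202 CPM in the libraries labelled mutant and 13624 and 13709 CPM in the wild type. Both mutant-labelled libraries were below both wild-type libraries for 472 of the 536 genes. The share called lower was 57.9% among the 195 late risers and 49.6% among the 341 early risers, which had gained more than 1 log2 unit by 1 to 1.5 h. Of 422 boosted genes, 95 (22.5%, below the 27.7% of all genes) were called lower, 1 was called higher, and their median was -0.57. The fit of the 4 libraries alone called 59 of them lower, and 69 of the 95 were also called lower against the second control. The boosted class was defined by its gain in that control, which favours such a call.

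The zygotic deficit was seen with other choices of genes and control. Against the second control, with rising genes defined instead in the wild type for the HIRA mutant, 273 of 632 (43.2%) were called lower and 18 higher. The background for these counts is the one given above for that control. Of the 282 genes called lower, 211 were also called lower against the second control. These 282 belong to the rising class defined by its gain in that control, which favours such a call. In a check chosen after the late markers were seen, 71 of the 148 rising genes under 0.5 CPM in the 0.5 to 1 h wild type were called lower.

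Rising genes had nevertheless been switched on in the libraries labelled mutant, taken as whole pools. Levels in a pool average over its embryos, and how many of them had switched these genes on was not tested. The study reports arrested or delayed nuclear divisions in most embryos without maternal HIRA at about this age. The share of such embryos in these pools was not tested. Compared with wild-type embryos of 1 to 1.5 h, the 2.5 to 3 h libraries labelled mutant were called higher at 453 of 536 rising genes (20.3% of all genes were), and the 2.5 to 3 h wild type was called higher at 531 (35.4% of all genes). Over those 531 genes the libraries labelled mutant reached a median of 65.4% of the wild-type log2 gain, and 42 genes went past the wild-type level. At 1 to 1.5 h the deficit was deeper: 374 rising genes were called lower at that age (21.2% of all genes), with a median of -1.81. Of the 282 genes called lower at 2.5 to 3 h, 217 were called lower at 1 to 1.5 h and 124 at 0.5 to 1 h (15.8% of all genes). A test of the difference between both ages called 190 rising genes less depressed at 2.5 to 3 h and 24 more depressed, against 14.0% and 6.65% of all genes.

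**Figure D3:**
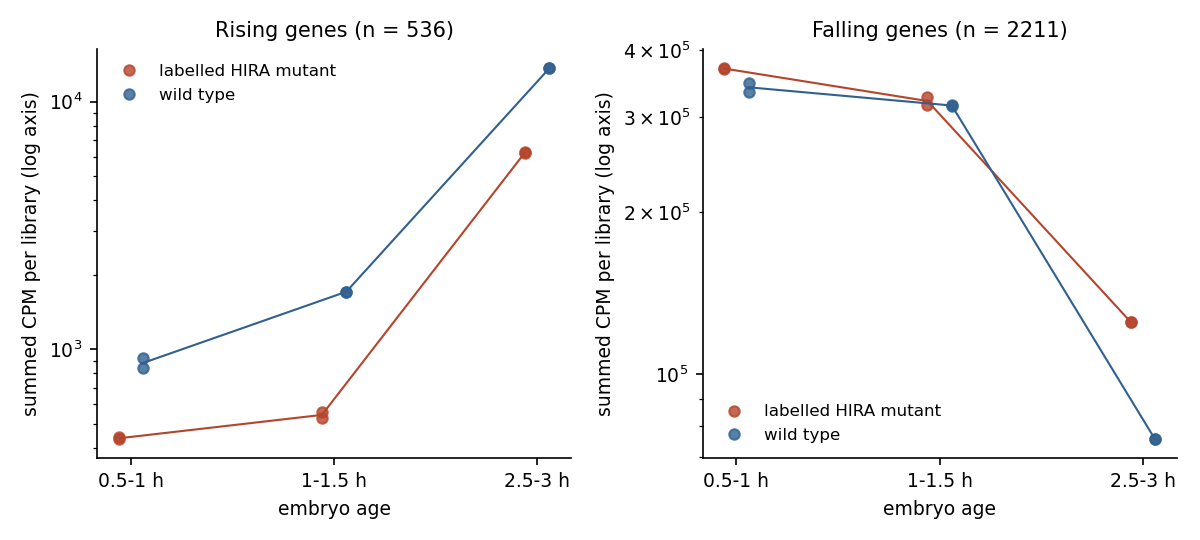
Summed CPM per library (log axis) of 536 rising and 2211 falling genes against embryo age, 2 points a genotype and age with lines through the means. Rising RNA climbs to 6294 and 6202 CPM in the libraries labelled HIRA mutant and to 13624 and 13709 CPM in the wild type, while falling RNA ends at 125110 and 124880 CPM against 75634 and 75642 CPM.

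Segmentation genes showed the deficit along the body axis. Among pair-rule genes, which set up alternate segments, 7 of 9 were called lower with a median log2 fold change of -1.29. Expression of opa, a zinc-finger factor of this tier (chr3R:4852813-4869979), was 230 and 233 CPM in the libraries labelled mutant and 608 and 674 CPM in the wild type. Its pairs did not overlap, and the log2 fold change was -1.47 (SE 0.09, adjusted p = 5.5e-08). Transcripts of ftz, a homeodomain factor, came to 140 and 137 CPM against 347 and 330 CPM, and prd, a paired-domain factor, to 108 and 108 CPM against 280 and 284 CPM. The other members called lower were eve, h, odd and slp1, and 6 of the 7 were also called lower against the second control, eve being the exception (log2 fold change -1.12, and -0.52 against that control).

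Segment polarity genes, which pattern each segment, had 6 of 8 members called lower with a median of -1.41. The Hedgehog receptor gene ptc stood at 392 and 401 CPM in the libraries labelled mutant and at 1063 and 1066 CPM in the wild type. The Wnt ligand gene wg was at 46.1 and 50.5 CPM against 118 and 120 CPM, and the ligand gene hh at 12.7 and 14.9 CPM against 34.8 and 40.05 CPM. The strongest change of the tier was in mid, a T-box factor, at 24.7 and 22.2 CPM against 75.1 and 80.3 CPM (log2 fold change -1.73, SE 0.09, adjusted p = 2.4e-08). In every one of these genes the mutant-labelled pair lay below the wild-type pair. All 8 members were called lower against the second control.

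Of the 6 gap genes, the tier that reads the maternal gradients directly, 1 was called lower (16.7%, below the 27.7% of all genes), and their median was -0.73. This was hkb, at 34.0 and 33.3 CPM against 72.7 and 73.9 CPM. Kr was at 158 and 147 CPM against 261 and 253 CPM (log2 fold change -0.75), and kni at 85.6 and 78.7 CPM against 132 and 138 CPM (-0.72, SE 0.08, adjusted p = 1.5e-05). Both had non-overlapping pairs but missed the fold threshold. For hb, which has maternal and zygotic transcripts, the libraries labelled mutant were the higher pair, at 271 and 280 CPM against 197 and 209 CPM (0.44, adjusted p = 0.0023). Whether the tiers differ from each other was not tested.

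**Figure D4:**
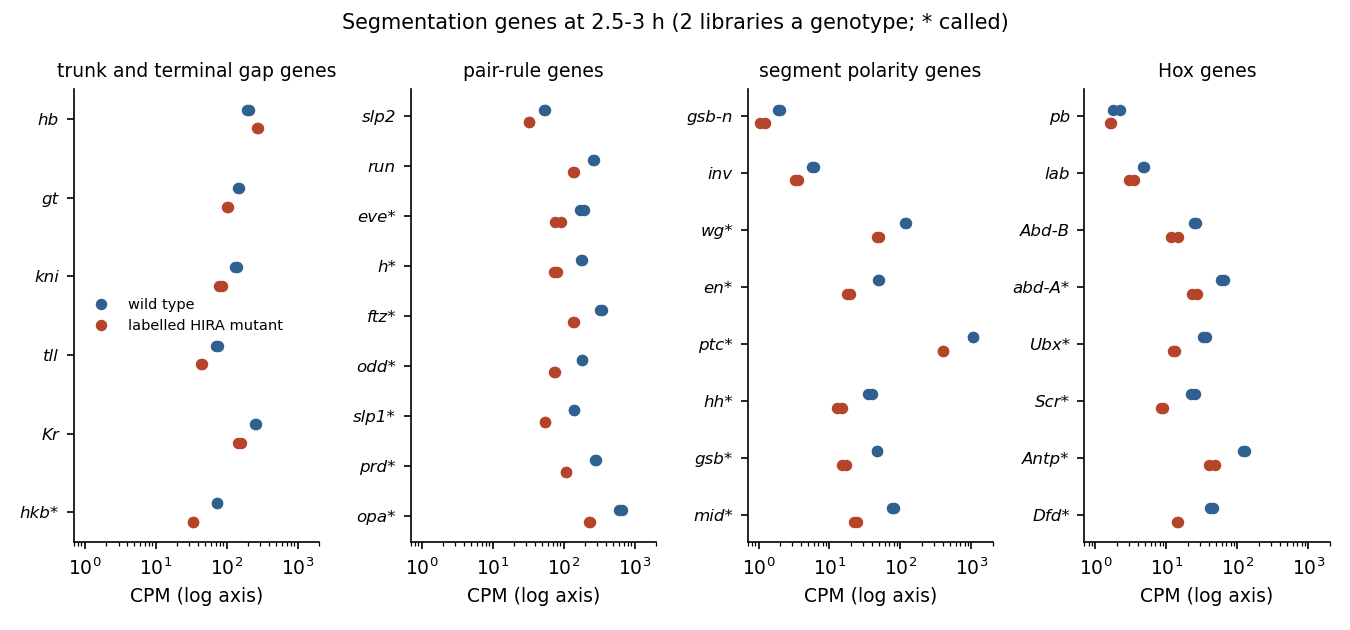
CPM (log axis) of gap, pair-rule, segment polarity and Hox genes in the 2 libraries of each genotype at 2.5 to 3 h, ordered within a panel by fold change; an asterisk marks a called gene. Mutant-labelled points lie to the left of the wild type for every pair-rule, segment polarity and Hox gene shown, and to the right for hb.

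Hox genes, which give segments their identity, had 5 of 8 members called lower with a median of -1.38, and 7 of 8 against the second control. Ubx (chr3R:16656623-16734426) was at 13.2 and 12.3 CPM in the libraries labelled mutant and 32.6 and 36.3 CPM in the wild type (log2 fold change -1.43, SE 0.10, adjusted p = 1.8e-07). abd-A was at 26.9 and 22.6 CPM against 64.0 and 59.3 CPM (-1.32, adjusted p = 1.6e-05), and Antp at 48.1 and 39.7 CPM against 129 and 122 CPM. Abd-B, at 14.7 and 11.7 CPM against 24.2 and 26.5 CPM, fell short of the threshold (-0.94, adjusted p = 7.7e-05) and was called against the second control (-1.26). For these genes the difference had been larger at 1 to 1.5 h, when Ubx stood at 0.32 and 0.21 CPM against 4.38 and 4.77 CPM.

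Dorsoventral genes gave the same picture on the other axis. Of 14 dorsal ectoderm and amnioserosa genes 10 were called lower, of 8 neuroectoderm genes 5, and of 11 mesoderm genes 6. Against the second control these counts were 9, 4 and 6. The mesoderm factor twi was at 116 and 124 CPM against 238 and 253 CPM (log2 fold change -1.03, SE 0.07, adjusted p = 1.9e-07), close to the threshold and not called against the second control (-0.86). Its partner sna was at 107 and 110 CPM against 252 and 246 CPM, and the fibroblast growth factor receptor gene htl at 49.1 and 50.1 CPM against 145 and 136 CPM. Dorsally, ush, a partner of GATA factors, was at 81.3 and 74.2 CPM against 215 and 213 CPM. By contrast scw, a BMP-type ligand gene of the first zygotic wave, was at 30.4 and 26.6 CPM against 16.5 and 14.0 CPM (0.89, not called). In the neuroectoderm, SoxN was called lower at 110 and 101 CPM against 270 and 270 CPM, and the midline gene sim at 6.98 and 7.44 CPM against 23.5 and 25.8 CPM. Gut genes had 4 of 6 called lower (5 against the second control), among them the forkhead factor gene fkh and the hindgut gene byn (48.4 and 50.8 CPM against 128 and 138 CPM). A gene of this list that is loaded maternally, cad, was called higher at 110 and 105 CPM against 30.6 and 25.3 CPM.

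Of 9 cellularisation genes 1 was called, and their median log2 fold change was 0.00. Transcripts of slam, which guides membrane growth, were at 1589 and 1699 CPM against 1411 and 1487 CPM, and those of kuk, a nuclear-envelope gene, at 1781 and 1680 CPM against 2510 and 2407 CPM. The called gene was nullo, an early and short-lived transcript, at 9.17 and 9.43 CPM against 0.67 and 0.70 CPM (log2 fold change 3.76, SE 0.16, adjusted p = 5.5e-09); it was also called higher against the second control (2.86). The gene of the pioneer factor Zelda, vfl, was at 1457 and 1457 CPM against 1431 and 1467 CPM, and that of GAGA factor, Trl, at 314 and 290 CPM against 313 and 320 CPM, both with overlapping pairs. Neither His3.3A (289 and 289 CPM against 311 and 307 CPM) nor His3.3B (1208 and 1189 CPM against 1219 and 1176 CPM), the genes for H3.3, was called.

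Maternal RNA that wild-type embryos clear was higher in the libraries labelled mutant. Of 2211 falling genes, 683 (30.9%, against 9.89% of all genes) were called higher and 240 (10.9%, against 27.7%) lower, with a median log2 fold change of 0.37 and quartiles of -0.51 and 1.19. The class summed to 125110 and 124880 CPM in the libraries labelled mutant and 75634 and 75642 CPM in the wild type. Among stable genes, 149 of 1811 (8.23%) were called lower, 14 were called higher, and their median was 0.08. Against the second control, 509 of the 683 falling genes called higher were called higher too, and 74.5% of the 149 stable genes were again called lower. The falling class was defined by its loss in that control, which favours a higher call. The libraries labelled mutant were the same in both contrasts. Because CPM are shares of a library, more maternal RNA and less of other RNA per embryo cannot be told apart here.

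bcd, the RNA that encodes the anterior morphogen (chr3R:6755842-6759466), had the largest fold change among the falling genes called higher. It was at 180 and 178 CPM in the libraries labelled mutant and at 5.87 and 4.95 CPM in the wild type, a 32.9-fold difference (log2 fold change 5.04, SE 0.07, adjusted p = 6.3e-12). At 1 to 1.5 h it had been at 273 and 271 CPM against 263 and 268 CPM. The second control held 16.3 and 17.4 CPM of bcd on its own scale, and the gene was called higher against it (log2 fold change 3.49, SE 0.07, adjusted p = 3.6e-12). The other genes named by size of change were CG44005 (58.6 and 51.2 CPM against 2.12 and 1.51 CPM), CG7730 (87.9 and 89.5 CPM against 3.41 and 4.31 CPM) and bam, a germline differentiation gene (42.6 and 47.9 CPM against 1.75 and 1.83 CPM).

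**Figure D5:**
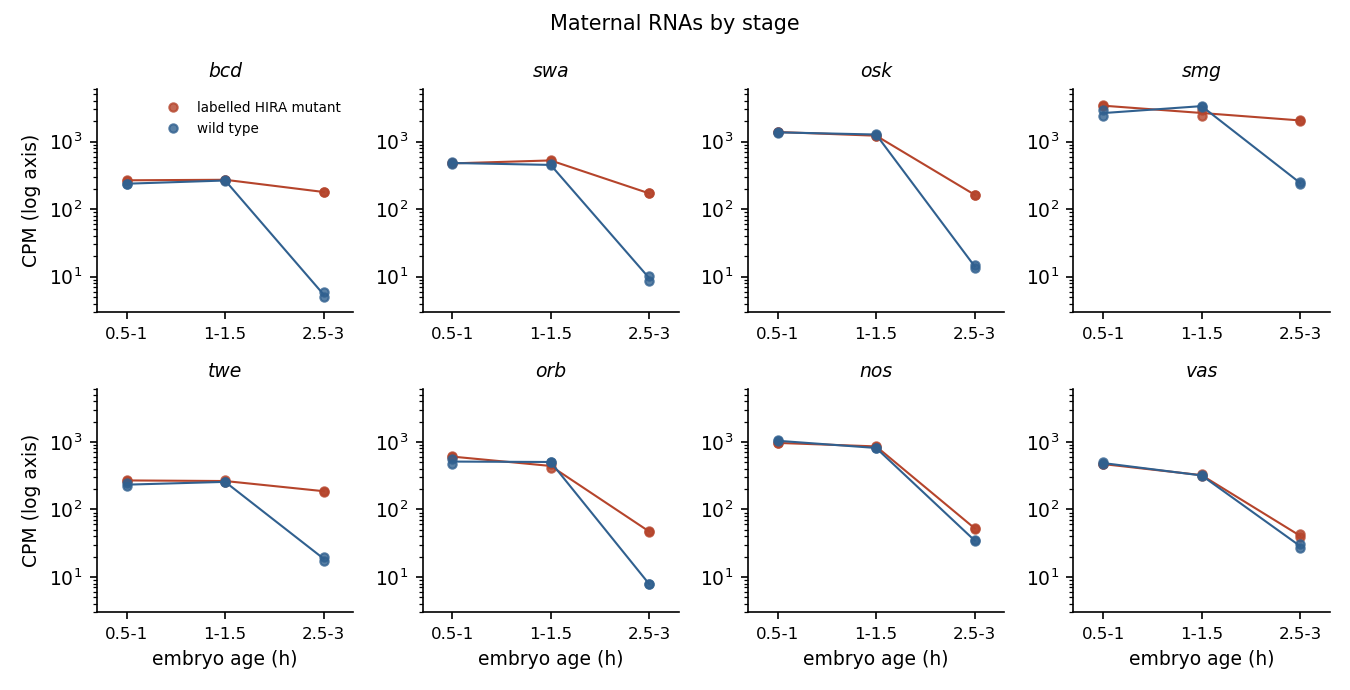
CPM (log axis) of 8 maternal RNAs at 3 embryo ages, 2 points a genotype and age with lines through the means. For bcd, swa, osk, smg, twe and orb the wild-type points fall far below those labelled HIRA mutant at 2.5 to 3 h (bcd 5.87 and 4.95 CPM against 180 and 178 CPM); for nos and vas both genotypes fall together.

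Maternal pathways held called and uncalled members side by side. Of 22 maternal axis genes, 9 were called higher and 2 lower. swa, whose product localises bcd RNA, was at 170 and 172 CPM against 10.4 and 8.67 CPM, and tor, the terminal receptor gene, at 156 and 154 CPM against 44.1 and 42.6 CPM. The ligand gene spz of the Toll pathway was at 35.3 and 35.2 CPM against 5.16 and 4.95 CPM, whereas the genes for its transcription factor, dl, and inhibitor, cact, were not called (log2 fold changes 0.11 and 0.02). The 2 called lower were pip and wbl, which act in follicle cells for this axis and were classed here as rising genes. Of these, pip was at 1.18 and 0.68 CPM against 11.4 and 10.5 CPM. Against the second control 8 of the 9 were called higher as well.

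Germ plasm RNAs were split too. osk, which organises the germ plasm, was at 162 and 164 CPM against 13.5 and 14.9 CPM (log2 fold change 3.52, SE 0.06, adjusted p = 1.3e-11), and aret, gcl and CycB were called higher too. nos, at 52.9 and 52.1 CPM against 35.6 and 33.7 CPM, and vas, at 42.9 and 38.5 CPM against 30.4 and 26.9 CPM, were not called. In total 4 of 14 germ plasm genes were called higher, 3 of them also against the second control, where aret was not called (log2 fold change 0.72).

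Regulators of maternal RNA and of the early cell cycle were among the persistent transcripts. smg, which encodes a main repressor and destabiliser of maternal RNA (chr3L:8990317-8997989), was at 2099 and 2010 CPM against 249.6 and 238 CPM (log2 fold change 3.07, SE 0.10, adjusted p = 9.8e-10). Other translational regulators followed: orb at 48.4 and 45.8 CPM against 7.91 and 7.80 CPM, cup at 183 and 182 CPM against 47.1 and 48.4 CPM, and pum at 486 and 482 CPM against 171 and 179 CPM. Not1 and Pop2, of the deadenylase complex, were not called. The poly(A) polymerase gene of the egg, wisp, was at 961 and 956 CPM against 229 and 225 CPM, and gnu, a subunit gene of the Pan gu kinase, at 21.9 and 20.6 CPM against 3.21 and 2.15 CPM. In these lists 5 of 14 repression and decay genes and 5 of 10 egg activation genes were called higher, and 4 and 5 against the second control.

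Of 22 cell-cycle genes 6 were called higher, 4 of them also against the second control. The Cdc25 phosphatase gene twe, whose loss marks the end of the rapid divisions, was at 184 and 188 CPM against 17.3 and 19.97 CPM (log2 fold change 3.33, SE 0.08, adjusted p = 1.0e-10). CycB was at 2669 and 2709 CPM against 1104 and 1092 CPM, and CycD at 159.5 and 158 CPM against 40.8 and 38.3 CPM, while CycA stood at 1051 and 1026 CPM against 1071 and 1036 CPM. The zygotic Cdc25 gene, stg, was at 293.5 and 283 CPM against 196 and 181 CPM, short of the threshold. Of 17 pioneer and chromatin factor genes 3 were called, all lower (17.6%, below the 27.7% of all genes). These 3 encode Polycomb group proteins, while the Polycomb group genes esc, pho, ph-p and ph-d of that list were not called. E(z) was lower at 34.5 and 39.3 CPM against 106 and 109 CPM, Su(z)12 at 120 and 122 CPM against 260 and 254 CPM, and Pc at 48.3 and 46.6 CPM against 114 and 105 CPM, and all 3 were called lower against the second control.

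The excess of maternal RNA was seen mainly at the latest age. Of the 2211 falling genes, 2204 had lost no more than 1 log2 unit by 1 to 1.5 h in the H3.3 wild type. Few higher calls at the earlier ages follow in part from this. Of the 683 falling genes called higher, 13 were called higher at 1 to 1.5 h (1.96% of all genes were), 34 at 0.5 to 1 h (3.73%), and 646 at neither earlier age. A test of the difference between the 2.5 to 3 h and 1 to 1.5 h contrasts called 660 of the 2211 falling genes higher and 209 lower (14.0% and 6.65% of all genes). Clearance itself was under way in the pools as a whole. For this, the libraries labelled mutant at 2.5 to 3 h were compared with the 1 to 1.5 h wild type. Of the 2211 falling genes, 1519 were called lower in these libraries (26.0% of all genes were). Of the 2018 that fell in the wild type between those ages (22.2% of all genes), the libraries labelled mutant had lost a median of 76.5% of the wild-type log2 loss, with quartiles of 39.7% and 115.2%, while 656 genes had lost under 50% and 689 more than the wild type. By their loss in the H3.3 wild type, 24.1% of the RNAs losing between 1 and 2 log2 units were called higher, 36.4% of those losing between 2 and 3, 44.7% between 3 and 4, and 41.2% above 4.

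In the other direction, 240 falling genes were called lower, and 139 in the fit of the 4 libraries alone. Adh, the alcohol dehydrogenase gene, was at 2.07 and 2.46 CPM against 25.4 and 26.1 CPM after similar levels at 1 to 1.5 h (152 and 144 CPM against 176.5 and 165 CPM), and CG15093 was at 0.53 and 0.37 CPM against 5.33 and 6.14 CPM. Dh44-R2, a neuropeptide receptor gene, was low at every age, at 1.06 and 1.73 CPM against 21.0 and 21.3 CPM here and at 1.43 and 1.92 CPM against 83.0 and 84.2 CPM at 0.5 to 1 h. Of the 240, 204 were called lower against the second control. Of the 7 genes that had already fallen by 1 to 1.5 h in the H3.3 wild type, 6 were called lower, among them Osi6, at 0 and 0 CPM against 137 and 138 CPM. In the libraries compared here Osi6 was no falling gene, since the matched wild type had 0.06 and 0.13 CPM of it at 0.5 to 1 h.

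Several of the largest single differences were also in genes of late tissues. Lcp65Ag2, a larval cuticle protein gene classed as rising (chr3L:6132990-6133593), had 0 counts in both libraries labelled mutant and 160 and 182 CPM in the wild type, at least 965-fold lower with a floor of 3 counts per library. It was already at 79.2 and 80.9 CPM in the 0.5 to 1 h wild type. By contrast Spn28Da, a serpin gene, was at 0 and 0.05 CPM against 7.496 and 6.998 CPM, with 0.15 and 0 CPM in the 0.5 to 1 h wild type, and CG42339 at 0.18 and 0.31 CPM against 12.6 and 11.4 CPM. Both were called lower against the second control. Of 65 cuticle protein genes 55 were called lower (32 against the second control), and of 19 serpin genes 10 lower and 3 higher (6 and 2). The only rising genes called higher were CG34025, at 13.9 and 10.8 CPM against 5.62 and 5.11 CPM, and Esp, at 40.2 and 43.6 CPM against 18.3 and 19.5 CPM, and neither was called against the second control. Heat shock genes had 7 of 17 called lower, with Hsp70Bb at 38.7 and 34.5 CPM against 291 and 265 CPM; its near-identical copies share reads, and it was not called against the second control (log2 fold change 0.19, adjusted p = 0.10).

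Among other lists, cytosolic ribosomal protein genes had 1 of 89 called higher and 2 lower, and proteasome genes 1 and 3 of 35. Mitochondrial ribosomal protein genes had 3 of 73 called higher and 11 lower (15.1%, below the 27.7% of all genes), and the same 11 were called lower against the second control. Of 4 cell death genes 0 were called. The most abundant, W, was the lower pair in the libraries labelled mutant, at 42.7 and 35.7 CPM against 50.7 and 55.8 CPM (log2 fold change -0.44). In the other direction, rpr was at 25.6 and 21.7 CPM against 12.6 and 12.3 CPM (log2 fold change 0.92, adjusted p = 9.6e-05). Likewise skl was at 8.16 and 7.91 CPM against 4.41 and 3.82 CPM. Both rpr and skl missed the fold threshold, and rpr passed it against the second control (log2 fold change 1.12). Dosage compensation genes diverged: msl-2, the male-limiting subunit, was called lower at 73.1 and 74.4 CPM against 262 and 257 CPM, and msl-1 higher at 463 and 447 CPM against 231 and 221 CPM, though msl-1 missed the threshold against the second control (log2 fold change 0.70). CG11399, the dPCIF1 gene, was called higher, with a log2 fold change of 1.08 (SE 0.05, adjusted p = 5.6e-09) and 0.93 against the second control, where it missed the fold threshold.

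The chromosomes were not affected alike in number. Among rising genes 23 of 58 on the X were called lower (39.7%), against 49 of 94 on 2L, 70 of 114 on 2R, 56 of 114 on 3L and 83 of 150 on 3R. Among all genes the X had 17.5% called lower and a median log2 fold change of 0.01, while 2L, 2R, 3L and 3R had between 28.6% and 31.3% called lower and medians between -0.45 and -0.30. Chromosome 4, with 91 genes, had 16.5% called lower, and 1 of its 6 rising genes. Stable genes on the X had a median of 0.24. All 7 genes of the Y chromosome that passed the filter were called lower, at 0 to 0.83 CPM in the libraries labelled mutant and 0.43 to 3.28 CPM in the wild type; 5 of these are copies of Suppressor of Stellate, which share reads. Another of them, fdy, was the reverse at 0.5 to 1 h, with 5.44 and 6.49 CPM in the libraries labelled mutant and 0.18 and 0.25 CPM in the wild type. The difference between chromosomes was not tested.

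The H3.3 mutant, which lacks the histone that HIRA deposits, was compared with its own wild type at the same age. Those values share no library with the HIRA comparison, but the classes were drawn from that wild type. In that contrast 364 rising genes were called lower (17.7% of all genes were) with a median of -1.46, and 817 falling genes higher (25.7% of all genes) with a median of 0.70. In a test of the difference between both contrasts over 11081 genes, 1117 were called higher in the HIRA contrast (10.1%) and 2279 lower (20.6%), and with library sizes in place of TMM factors 409 were called higher. For bcd the log2 fold change was 3.62 in the H3.3 contrast and 5.04 in the HIRA contrast (difference 1.64 in the joint fit, adjusted p = 9.7e-11), and for vfl -1.43 and 0.01 (difference 1.66). Late-tissue markers went opposite ways in the 2 contrasts, since the muscle sum was 3131 and 3124 CPM in the H3.3 mutant and 398 and 402 CPM in its wild type; their part in the difference was not tested.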

How the data were processed

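RNA-seq libraries were strand-specific and, per the labels, depleted of rRNA, although the molecule field names polyA RNA. The authors trimmed reads (Trimmomatic 0.39), aligned them (STAR 2.7.10a, dm6) and estimated gene levels with RSEM 1.3.1; the deposited files give expected counts and TPM per gene. The submitters' notes also name DESeq2 1.40.2. TPM served only as a side value per gene. The 12 libraries of the HIRA experiment and 12 of the H3.3 experiment were used, with 2 libraries a group; the other files were not used here. Expected counts were rounded and fitted with edgeR 4.0.16 (R 4.3.3): TMM scaling, filterByExpr with a count minimum of 10 and a total of 15, glmQLFit over 6 groups, glmQLFTest and Benjamini-Hochberg adjustment. DESeq2 1.42.0 was an alternative. A count of 3 in a library, the floor, stood for 0.12 to 0.18 CPM in the 4 libraries compared and covers counting error only. The fit was tested on simulated data for this comparison, 10448 genes of which 200 were changed: 197 were called, and 1 unchanged gene.

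Positions came from an Ensembl annotation of the same build; all but 57 of 16680 genes matched. Rising genes were defined as under 2 CPM at 0.5 to 1 h, at least 5 CPM at 2.5 to 3 h, with a log2 gain above 2. Named genes were those the study's text on RNA names; per class and direction up to 4 called genes with the largest change, 5 CPM in a group and no overlap between pairs; and per list the 2 most abundant members and up to 3 called members with the largest change. Other members were named after their values were seen. Class definitions, gene lists and members were chosen with earlier results of these data known. Alternatives covered scaling, filters, class lists, the control, the replicate block and each replicate left out. Unmatched list symbols were not analysed here.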

Additional observations from a re-analysis of the deposited data

Results flagged for a closer look

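Differences between the contrasts of 2.5 to 3 h and 1 to 1.5 h, tested in the same fit, were found for 190 rising genes higher and 24 lower and for 660 falling genes higher and 209 lower. Over all genes tested the shares were 14.0% higher and 6.65% lower. By the same test Hira differed by 1.68 on the log2 scale, its difference from the wild type turning from lower to higher. Ubx (2.73), abd-A (2.65) and Abd-B (3.21) were less depressed at the later age, and CG34025 (4.42) and Esp (1.252) moved upward. Among the falling genes, bcd (5.0025), CG44005 (5.0022), bam (3.51), CG7730 (4.43), Dh44-R2 (1.71) and CG30059 (1.06) were higher relative to the wild type at the later age, and CG15093 (-3.50) and Adh (-3.29) lower.

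Between the HIRA and H3.3 contrasts at 2.5 to 3 h, 1117 genes were called higher (409 with library sizes in place of TMM factors) and 2279 lower. The differences for vfl (1.66), His3.3A (2.17) and His3.3B (1.96) passed that test; for the H3.3 genes the H3.3 contrast compares animals mutant for those genes. Both contrasts carry late-tissue markers in opposite directions, whose part was not tested.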

How the results depend on the processing

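Most counts kept within 1.5 times of their value over 18 settings. Of the 54 genes named by rule, none changed direction where it was called in the main fit or in the setting. Of 648 values, 627 kept their side of the threshold, 13 lost the call and 8 gained it. Sign changes between uncalled values were not counted. Among them Hira and His3.3B, positive in the main fit, were at -0.07 and -0.10 against the second control. The fit of the 4 libraries alone called 139 falling, 77 stable and 59 boosted genes lower. With no minimum fold change, 2861 genes were called higher and 5114 lower, with 435 rising genes lower, 1190 falling genes higher and 687 falling genes lower. By construction fewer genes remained in other settings. Rising genes of at least 20 CPM had 101 of 171 called lower, and in 2 settings chosen after seeing the data, rising genes under 0.5 CPM in the 0.5 to 1 h wild type had 71 called lower, and without genes called at 0.5 to 1 h 1593 of all genes and 155 of 313 rising genes were called lower. With library sizes in place of TMM factors the HIRA and H3.3 contrasts differed upward at 409 genes (1117 with TMM). The cause was not tested. The median of all genes ran from -0.38 with RLE factors (917 higher, 3260 lower) to -0.06 in the fit of 4 libraries (1356 higher, 2288 lower), so changes are best read relative to it.

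Without one replicate at a time, 1120 to 1159 genes were called higher and 2759 to 2776 lower, 265 to 278 rising genes lower, 716 to 737 falling genes higher, 203 to 218 falling genes lower, 113 to 128 stable and 79 to 84 boosted genes lower. The lone library was assumed to vary like the other groups. Replicate numbers did not pair the samples, with correlations of -0.070 to 0.18 between same-numbered libraries, and a fit with a replicate block called 1047 genes higher, 2930 lower and 281 rising genes lower. DESeq2 called 819 genes higher and 2928 lower, with 319 rising genes lower and 603 falling genes higher. Genes at or under 3 counts in a group, 807 of them in the libraries labelled mutant, have fold changes that depth does not resolve.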

Other observations

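Some genes outside the rising and falling classes differed between the genotypes at both 2.5 to 3 h and 0.5 to 1 h. CR40469 and CG12200 met no class definition, and Oseg5 and CG8316 were stable genes. CR40469, a noncoding RNA gene of the X chromosome, was at 320 and 304 CPM in the libraries labelled mutant at 2.5 to 3 h and at 0.75 and 0.48 CPM in the wild type, and at 294 and 297 CPM against 0.12 and 0.13 CPM at 0.5 to 1 h. CG12200 was at 44.3 and 48.3 CPM against 0.25 and 0.27 CPM at 2.5 to 3 h and at 36.9 and 37.8 CPM against 0.12 and 0.17 CPM at 0.5 to 1 h. The H3.3 mutant showed the same direction for both, with log2 fold changes of 8.22 for CR40469 and 7.66 for CG12200 against its own wild type. Oseg5, which encodes an intraflagellar transport protein, was the reverse, at 0.24 and 0.21 CPM against 10.9 and 11.5 CPM at 2.5 to 3 h and at 0 and 0 CPM against 10.3 and 10.5 CPM at 0.5 to 1 h. CG8316 was higher in the libraries labelled mutant at both ages, at 41.4 and 39.3 CPM against 7.04 and 7.37 CPM and at 36.2 and 37.7 CPM against 6.60 and 9.10 CPM. These differences were present at the earliest age. The stocks' other differences cannot be told apart from the HIRA alleles here.

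Rising genes that were called lower had fewer single-exon members than those not called lower, 12.8% of 282 against 19.7% of 254. Their median span was 5006 bases against 4091 bases. The early risers carried this pattern, with 8.88% of 169 against 19.8% of 172 and spans of 5493 against 4221 bases. Among late risers the shares were close, 18.6% of 113 against 19.5% of 82, and the spans were 3694 against 3882 bases. These shares were not tested.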
